A study of Carassius auratus with 6 samples.

Results

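Apolipoproteins and the proteins that work with them carry fat and sterol through water. Apolipoproteins coat lipoprotein particles outside the cell and steer them to receptors and lipases, fatty acid-binding proteins shuttle fatty acids inside the cell, and perilipins coat the droplets in which fat is stored. In the vertebrate retina, glia and pigment epithelium make apolipoprotein E and other carriers locally, and photoreceptor membranes, which are renewed throughout life, draw on lipid brought to the outer retina. Transfer proteins and lipases reshape the particles, and the ABC transporters ABCA1 and ABCG1 load them with cholesterol.

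The members were gene models of the goldfish (Carassius auratus) chosen by the gene name of their best Swiss-Prot match. The names were those beginning with apo followed by a, b, c, d, e, f, h, l or m, the numbered fabp names other than fabp7, plin1 to plin5, and lpl, lcat, cetp, pltp, mttp, cd36, abca1 and abcg1. The rule took 82 of the 56251 models in the table, under 28 names. No measured value is part of the rule, but it was chosen with earlier results of these data known. Of these, 43 models reached 1 FPKM in 3 or more of 6 libraries and were tested, as were 33907 models in the whole table. FPKM is the number of reads per kilobase of model, scaled to the size of the library, so its levels can be compared between genes. Of the 43, 41 reached 1 FPKM in every library. The other 39 fell below that minimum, and 5 of these had no read in any library. A total of 5 members share only letters with the family, 4 named apobec2 (an RNA-editing deaminase relative) and 1 named apol whose protein match is MIC27, a mitochondrial membrane protein. They are counted as members and described apart.

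The study set out to compare eyeballs of goldfish with celestial eyes, a breed trait in which the eyes point upward, with eyeballs of goldfish with normal eyes. Each group, C and R by its titles, had 3 libraries from eyes of fish aged 1 winter year, and the labels name no further treatment or allele. The fish of the groups came from 2 farms, 1 farm to a group, so farm and eye phenotype cannot be told apart. The sample annotations call C normal and R celestial-eyed, whereas the design text calls C celestial-eyed and R normal. The groups therefore go by their letters, with the eye phenotype of either letter unsettled. The labels name 3 fish per group without tying libraries to fish, so each p-value reflects only how much the libraries vary, which may be technical.

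Recovered reads numbered 9444623 to 11017539 in C and 9829134 to 11317200 in R. Across tested models, libraries of one letter correlated at 0.946 to 0.965 and libraries of different letters at 0.862 to 0.884. Photoreceptor markers stood at 28949 to 40643 FPKM in C and 27719 to 33156 FPKM in R in sum, so the defining markers of the labelled tissue were present. Other marker lists differed between the letters. Lens markers summed to 16755 to 31423 FPKM in C and 36759 to 39285 FPKM in R, and red blood cell markers to 9168 to 23373 FPKM in C and 2550 to 5555 FPKM in R, highest in C3. Skeletal muscle markers summed to 4716 to 7501 FPKM in C and 3961 to 4165 FPKM in R. Of their 30 tested models, 3 were higher and 0 lower in C, with a median log2 fold change of 0.095. The muscle marker mb alone had 2619, 2938 and 3451 FPKM in C1, C2 and C3, against 1790, 1789 and 1903 FPKM in R1, R2 and R3. Fibroblast and cartilage markers summed to 2651 to 3595 FPKM in C and 1661 to 2357 FPKM in R. Cornea and surface epithelium markers summed to 1493 to 1935 FPKM in C and 2421 to 3536 FPKM in R. Mueller glia markers overlapped, at 938 to 1259 FPKM in C and 812 to 960 FPKM in R, with 8 of 19 tested models higher and 4 lower in C. Pigment epithelium and pigment cell markers overlapped too in sum, at 1041 to 2031 FPKM in C and 1083 to 1217 FPKM in R. Single pigment markers differed, with 5 of 18 tested models higher and 0 lower in C and a median log2 fold change of 0.45. Summed by name, tyr, tyrp1, rpe65a and slc45a2 were called higher in C, lrat and dct were called lower, and rgr and pmel were not called. In whole eyeballs, more or fewer cells of a type and more or less RNA per cell cannot be told apart, and the part that tissue content plays in the differences below was not tested.

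As a group the members took a similar share of the transcriptome in both kinds of eye. They held 0.289%, 0.297% and 0.279% of the reads in C1, C2 and C3, against 0.322%, 0.290% and 0.252% in R1, R2 and R3, and the groups overlapped. Which members made up that share differed. With limma on log2(FPKM + 1) and Benjamini-Hochberg adjustment over all tested models, 16 of the 43 tested members (37.2%) passed an adjusted p of 0.05, 12 higher in C and 4 lower in C. Over all tested models 20.2% passed, 8.67% higher and 11.6% lower, and the counts by role below are to be read beside this share. The median log2 fold change, C over R, was 0.13 over the members and -0.09 over all tested models. The libraries of C and R did not overlap for 22 of the 43 members (51.2%), against 41.4% of all tested models. Called with a log2 difference of at least 1 were 7 of the 43 members, against 9.42% of all tested models. Among called models alone, 7 of the 16 members and 3195 of all 6864 had a difference of that size. The number called fell to 9 without C1, 10 without R1, 8 without R2 and 9 without R3. Over the whole table the calls fell in the same fits, to 4145, 3992, 3557 and 4520 of 33907 models, against 6864 with all libraries.

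**Figure D1:**
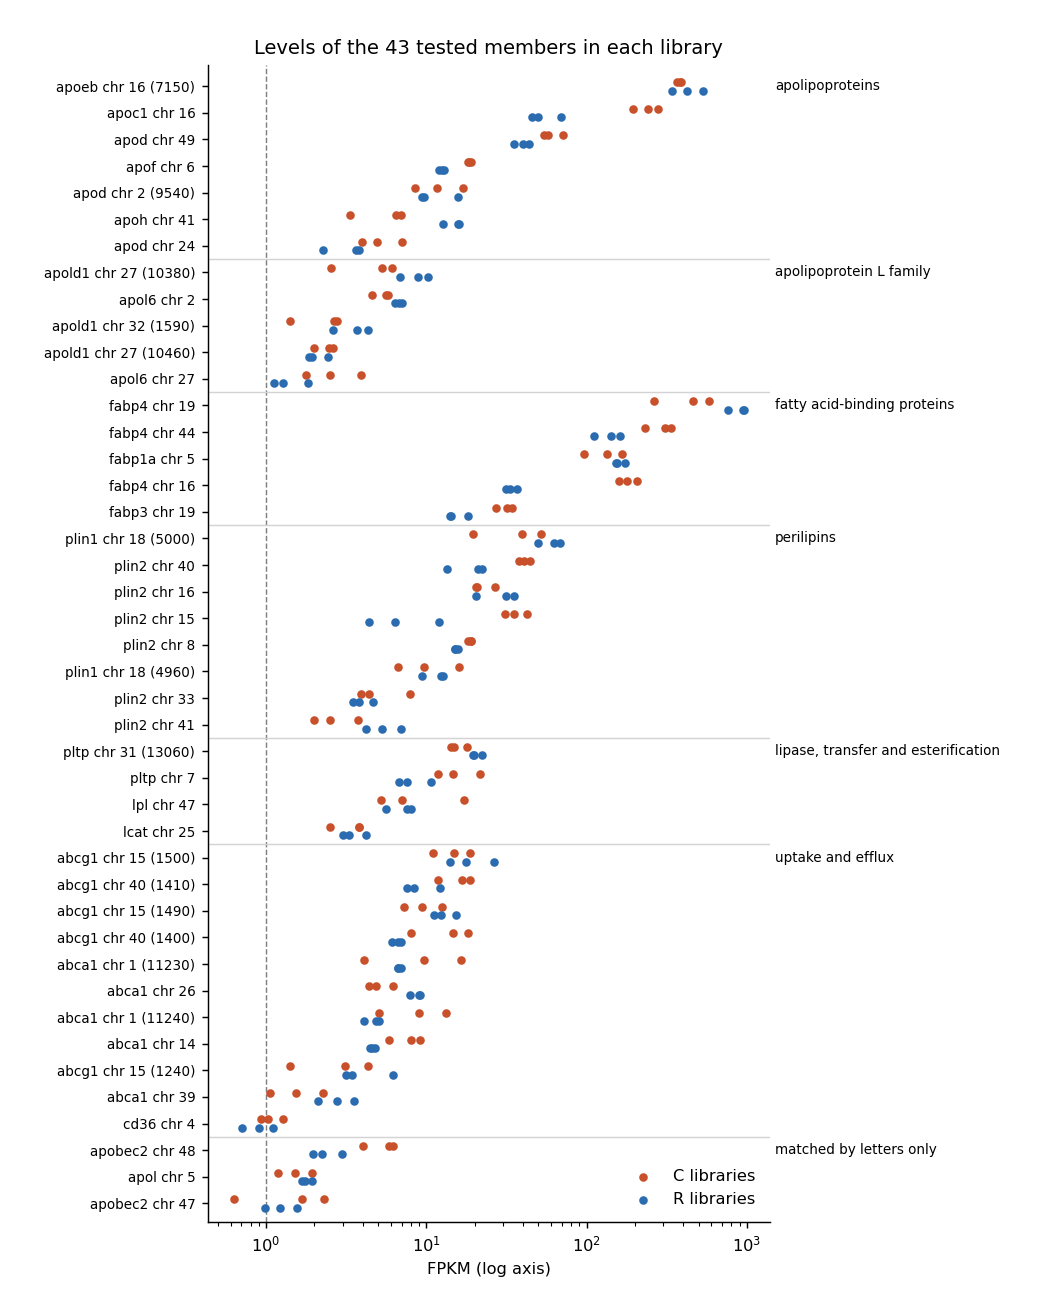
FPKM of the 43 tested members in each library on a log axis, one row per model with its chromosome, C libraries in orange drawn above R libraries in blue, and the last digits of the model's identifier where a name has several models on a chromosome. Models named fabp4 and apoeb lie highest, and the dashed line marks the minimum of 1 FPKM.

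Apolipoproteins proper were represented by 27 models, of which 7 were tested. Of these, 3 rose and 1 fell in C. The most abundant was apoeb, named after apolipoprotein E, the ligand that takes lipoproteins to receptors of the LDL receptor family. The description of this model is a hypothetical carp protein without a RefSeq symbol, so the name rests on the Swiss-Prot match alone. Next in level was apoc1, apolipoprotein C-I, a small exchangeable protein of lipoprotein surfaces that in mammals slows particle uptake and lipoprotein lipase. Both lie on chromosome 16 on the same strand, apoeb (Cau.16G0007150) at 19212103 to 19235099 and apoc1 (Cau.16G0007160) at 19236858 to 19240478. They are neighbours there, as the genes for apolipoproteins E and C-I are in mammals.

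Apoc1 passed the test and apoeb did not, and the difference between their changes was not itself tested. Apoc1 had 243, 277 and 196 FPKM in C1, C2 and C3, against 69.4, 49.6 and 45.5 FPKM in R1, R2 and R3. Every C library lay above every R library, with means of 239 ± 41.0 FPKM in C and 54.8 ± 12.8 FPKM in R (± is the SD over 3 libraries here and below). C over R, the log2 fold change was 2.11 with a standard error of 0.20 (limma, Benjamini-Hochberg adjusted p = 0.000599), and the call held in all 14 alternative analyses. Apoeb had 366, 383 and 389 FPKM in C1, C2 and C3, against 534, 425 and 343 FPKM in R1, R2 and R3. Here the groups overlapped, because R3 lay below and R1 and R2 above all 3 C libraries. The log2 fold change was -0.17 with a standard error of 0.17 (limma, adjusted p = 0.522). Within C, apoeb spread little (379 ± 11.5 FPKM), whereas in R it spread widely (434 ± 95.9 FPKM).

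The other models named apoeb were close to silent. The highest of them, Cau.16G0007130 on the same chromosome, is named after its values were seen and is described as apolipoprotein A-I-like. It had 9, 13 and 6 reads in C1, C2 and C3, against 0, 0 and 1 reads in R1, R2 and R3, and it fell below the minimum for testing. On chromosome 41, the 2 apoeb models together had 2 reads in C and 3 reads in R, and apoc2, the activator of lipoprotein lipase, had none in any library. Chromosome 41 shares more gene names with chromosome 16 than with any other, and in this table each of the 50 chromosomes has such a partner numbered 25 higher or lower. Of the models named apoeb, apoc1 or apoc2, only these neighbours on chromosome 16 exceeded the minimum.

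Apolipoprotein D is a lipocalin that binds small hydrophobic molecules and in mammals is made by glia. Its highest model (Cau.49G0006410, chromosome 49, 17703313 to 17704657) had 71.2, 54.4 and 57.5 FPKM in C1, C2 and C3, against 40.0, 43.9 and 34.98 FPKM in R1, R2 and R3. The 3 C libraries lay above the 3 R libraries. The difference on the log2 scale was 0.61 with a standard error of 0.15 (limma, adjusted p = 0.0260), and the adjusted p was 0.0763 without C1, 0.0769 without R1, 0.0518 without R2, 0.0820 without R3 and 0.0808 with quantile normalization, where the log2 fold change was 0.44. Its partner on chromosome 24 averaged 5.30 ± 1.56 FPKM in C and 3.23 ± 0.849 FPKM in R, a log2 fold change of 0.57 that did not pass (adjusted p = 0.126, limma). The model on chromosome 2, which RefSeq names apoda.1, averaged 12.3 ± 4.22 FPKM in C and 11.6 ± 3.69 FPKM in R. Summed over all apod models, the level was 79.9 ± 7.77 FPKM in C and 55.3 ± 5.69 FPKM in R, a log2 fold change of 0.52 (limma, adjusted p = 0.0205) that missed the threshold without C1 (0.0706), R2 (0.0726) or R3 (0.0667). Beside it, the Mueller glia markers were mixed. Glul, glutamine synthetase, rose to 611 ± 77.0 FPKM in C, against 335 ± 49.9 FPKM in R (limma on sums by name, adjusted p = 0.00666). Slc1a3 rose to 3.87 ± 1.30 FPKM in C, against 1.09 ± 0.660 FPKM in R (limma on sums by name, adjusted p = 0.0222). Rlbp1 averaged 243 ± 80.9 FPKM in C and 302 ± 33.0 FPKM in R, and neither it nor gfap, vim, aqp4 or kcnj10 was called. The part of glia in the apod result was not tested.

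Apolipoprotein F, which in human plasma regulates lipid exchange between lipoproteins, had 18.1, 19.0 and 18.4 FPKM in C1, C2 and C3, against 12.9, 12.1 and 12.5 FPKM in R1, R2 and R3 (Cau.06G0008510, chromosome 6). Both groups were tight and did not overlap. Their log2 fold change was 0.53 with a standard error of 0.10 (limma, adjusted p = 0.0115), and the adjusted p was 0.0540 without R2.

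The apolipoprotein that fell was apoh, also called beta-2-glycoprotein 1, a plasma protein that binds negatively charged phospholipids. Its model (Cau.41G0003310, chromosome 41, 12892237 to 12900999) had 3.34, 6.50 and 6.94 FPKM in C1, C2 and C3, against 15.9, 15.7 and 12.7 FPKM in R1, R2 and R3. C was lower in every library than R, and C1 was the lowest. The log2 fold change was -1.30 with a standard error of 0.24 (limma, adjusted p = 0.00879), a call that held in all 14 alternatives. Markers of liver and blood plasma were read beside apoh. Of their 4 tested models, 2 were higher and 0 lower in C, with a median log2 fold change of 1.33. Of 12 such markers 9 were matched by name, and 5 of these (ttr, fgb, fgg, hp and vtg1) summed to under 1 FPKM in every library. Among the rest, ahsg, which encodes fetuin-A, rose to 41.9 ± 9.34 FPKM in C, against 11.4 ± 2.85 FPKM in R (limma on sums by name, adjusted p = 0.00165). A transferrin name, tf1, fell to 0.478 ± 0.294 FPKM in C, against 1.96 ± 0.222 FPKM in R (limma on sums by name, adjusted p = 0.0115). The tf1 sum met the minimum for testing only through R, where it is high, so the separation of the groups follows from the filter. Fga averaged 1.93 ± 1.18 FPKM in C and 0.450 ± 0.258 FPKM in R. The fga sum met the minimum only through C, so the separation of the groups follows from the filter. It was not called (limma on sums by name, adjusted p = 0.0514). Itih3, the largest part of the list's sum, averaged 124 ± 24.2 FPKM in C and 120 ± 17.5 FPKM in R. The plasma list as a whole summed to 133 to 192 FPKM in C and 112 to 148 FPKM in R.

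**Figure D2:**
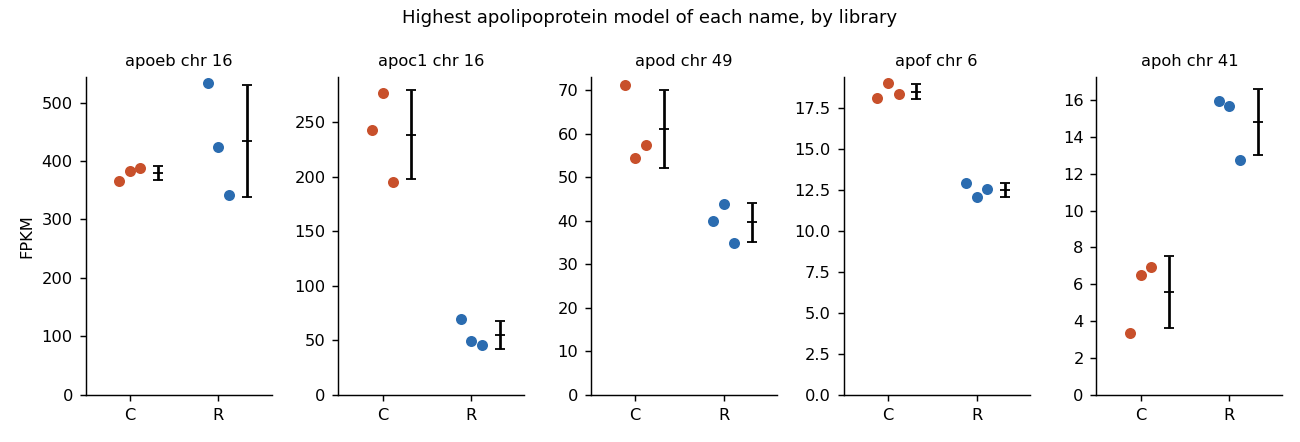
FPKM of the highest model of each tested apolipoprotein name in the 3 C libraries (orange, left) and 3 R libraries (blue, right), with the mean and SD of each group as a bar beside the points and each axis starting at 0. The groups overlap for apoeb, C lies above R for apoc1, apod and apof, and C lies below R for apoh.

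The apolipoproteins that build the lipoprotein particles of liver and gut were low. Apolipoprotein A-I, the core protein of high-density lipoprotein, reached at most 0.388 FPKM in C2 and 0.224 FPKM in R3 when summed over the 2 models named apoa1. The A-I-like model that is named apoeb had 1.00, 1.39 and 0.573 FPKM in C1, C2 and C3, against 0, 0 and 0.0929 FPKM in R1, R2 and R3, and was not tested. Apolipoprotein B, the backbone of very low-density lipoprotein, summed over its 6 models to 0.939, 1.42 and 0.943 FPKM in C1, C2 and C3, against 1.41, 0.790 and 1.59 FPKM in R1, R2 and R3. The groups overlapped and the sum did not pass (limma, adjusted p = 0.773). Mttp, the transfer protein that loads fat onto apolipoprotein B, stayed at 0.212 to 0.436 FPKM in C and 0.124 to 0.429 FPKM in R. A further 16 models are described as apolipoproteins but carry no name the rule takes. Of these 1 was tested, an A-I-like model on chromosome 15 that averaged 0.872 ± 0.171 FPKM in C and 1.54 ± 0.290 FPKM in R and was not called (limma, adjusted p = 0.127).

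The apolipoprotein L family, which in mammals acts inside cells and in blood and whose work in fish is little known, held 7 models, of which 5 were tested and none passed. The highest, an apold1-named model on chromosome 27 (Cau.27G0010380), had 6.12, 5.32 and 2.55 FPKM in C1, C2 and C3, against 8.90, 10.3 and 6.81 FPKM in R1, R2 and R3. The C libraries lay below the R libraries, and C3 was the lowest, but the log2 fold change of -0.82 missed the threshold (standard error 0.28, limma, adjusted p = 0.0742). The other 4 averaged 2.27 to 5.31 FPKM in C and 1.41 to 6.73 FPKM in R. Names in this family come from best matches, and 3 of the 5 models share one goldfish protein match.

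Among the fatty acid-binding proteins, models of the same name, fabp4, changed in opposite directions. Of 12 models 5 were tested, 3 rose and 1 fell in C. Fabp4 is in mammals the adipocyte type, used also in macrophages and in the endothelium of small vessels. The name was carried by 3 models, and all of them changed. Each is described as adipocyte-like and has no goldfish symbol beyond a locus number. Whether they are copies of the same gene was not tested. The one on chromosome 19 (Cau.19G0008610, 19687883 to 19689497) was the most abundant of all members. It had 577, 461 and 263 FPKM in C1, C2 and C3, against 961, 942 and 764 FPKM in R1, R2 and R3. Every C library was lower than every R library, and C3 was the lowest. Its log2 fold change was -1.0996 with a standard error of 0.28 (limma, adjusted p = 0.0298). This call was lost without R1 (adjusted p = 0.0939), R2 (0.1003) or R3 (0.0552), and with quantile normalization (0.0510).

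The other fabp4 models went the opposite way. The copy on chromosome 44 (Cau.44G0007920, 17732121 to 17734307), the numbered partner of chromosome 19, had 310, 233 and 334 FPKM in C1, C2 and C3, against 162, 141 and 111 FPKM in R1, R2 and R3. The groups did not overlap, and the log2 fold change was 1.08 with a standard error of 0.19 (limma, adjusted p = 0.00822). The copy on chromosome 16 (Cau.16G0004560, 15234638 to 15235581) had 159, 177 and 207 FPKM in C1, C2 and C3, against 31.2, 33.1 and 36.6 FPKM in R1, R2 and R3. All C libraries stood far above all R libraries. Its log2 fold change of 2.39, with a standard error of 0.14, was the largest of the members (limma, adjusted p = 5.75e-05). Both calls held in all 14 alternatives.

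The sum of the 3 models did not pass. It was 907 ± 125 FPKM in C and 1061 ± 130 FPKM in R, a log2 fold change of -0.23 with a standard error of 0.14 (limma on sums by name, adjusted p = 0.300). Its makeup differed. The chromosome 19 copy gave 46.9 ± 12.4% of it in C and 83.8 ± 0.558% in R. The chromosome 44 copy gave 32.6 ± 7.86% in C and 13.0 ± 0.965% in R, and the chromosome 16 copy gave 20.4 ± 5.28% in C and 3.23 ± 0.692% in R. In R the shares were nearly fixed between libraries, while in C they varied, with C3 having the smallest share from chromosome 19. How alike the sequences of these models are was not computed. Reads from near-identical copies may be divided between models in a way that could not be checked without the counting method. The split between fabp4 models is therefore uncertain. Their sum in FPKM may be affected too, because FPKM is divided by model length and the models on chromosomes 16, 19 and 44 are 512, 632 and 1114 bases long. The sum stayed uncalled in all 14 alternatives, with log2 fold changes of -0.33 to -0.08. Among them was limma-voom on recovered reads summed by name, into which model length does not enter.

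**Figure D3:**
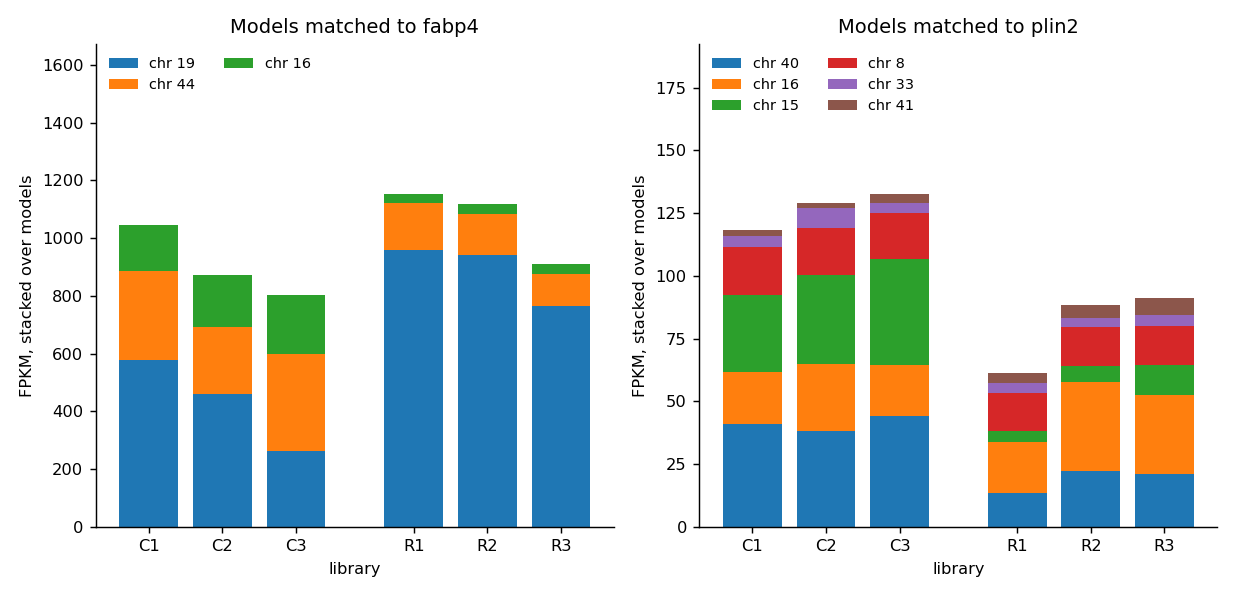
FPKM of the models matched to fabp4 (left) and to plin2 (right), stacked by chromosome, in the 3 C libraries followed by the 3 R libraries. For fabp4 the totals overlap between groups while the chromosome 19 part is smaller in C, and for plin2 the total is larger in C.

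Fabp1a, the liver type, followed fabp4 in level. Its model on chromosome 5 had 95.8, 135 and 166 FPKM in C1, C2 and C3, against 154, 151 and 173 FPKM in R1, R2 and R3. C3 lay within the range of R and the groups overlapped (log2 fold change -0.30, standard error 0.20, limma, adjusted p = 0.314). Fabp3, the heart and muscle type, is expressed in several tissues of fish. Its model on chromosome 19 (Cau.19G0007070) had 34.4, 31.8 and 27.2 FPKM in C1, C2 and C3, against 18.2, 14.1 and 14.2 FPKM in R1, R2 and R3. The groups did not overlap, and the log2 fold change was 0.97 with a standard error of 0.15 (limma, adjusted p = 0.00412), a call that held in all 14 alternatives. The second fabp3 model, on chromosome 44, was too low to test, with 21 reads in C and 5 reads in R. The intestinal fabp2, the ileal fabp6 and the second liver type fabp1b.1 had at most 5 reads per model in either group.

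Perilipins were the group in which every model was tested. Of 8 models, 2 rose and 1 fell in C. Perilipin 2 coats droplets in most cell types, and its protein is stabilized by stored fat. The copy on chromosome 15 (Cau.15G0002700, 7700309 to 7702621) had 30.8, 35.4 and 42.2 FPKM in C1, C2 and C3, against 4.36, 6.41 and 12.1 FPKM in R1, R2 and R3. All C libraries were higher than all R libraries, and the log2 fold change was 2.20 with a standard error of 0.30 (limma, adjusted p = 0.00280). Its partner on chromosome 40 (Cau.40G0004130, 10535113 to 10538156) had 40.8, 38.0 and 44.1 FPKM in C1, C2 and C3, against 13.5, 22.4 and 21.0 FPKM in R1, R2 and R3. It too separated the groups, with a log2 fold change of 1.101 and a standard error of 0.19 (limma, adjusted p = 0.00683). Unlike the fabp4 pair, these partner copies rose together, and both calls held in all 14 alternatives.

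The remaining plin2-named models are better described as relatives. The one on chromosome 16, which RefSeq names plin6, a fish perilipin known in zebrafish from the pigment droplets of skin cells, had 20.8, 26.8 and 20.3 FPKM in C1, C2 and C3, against 20.4, 35.2 and 31.6 FPKM in R1, R2 and R3. The groups overlapped (log2 fold change -0.32, limma, adjusted p = 0.317). Models described as perilipin-3-like lie on chromosomes 8, 33 and 41. The one on chromosome 41 (Cau.41G0006980) had 2.50, 1.99 and 3.76 FPKM in C1, C2 and C3, against 4.22, 5.29 and 6.90 FPKM in R1, R2 and R3. C lay below R, with a log2 fold change of -0.79 and a standard error of 0.23 (limma, adjusted p = 0.0472). That call was lost in 9 of the 13 alternatives that gave it a value, with adjusted p-values of 0.0238 to 0.144 over all of them, and it was lost without any one of C1, C2, R1, R2 or R3 (0.0590 to 0.144). The one on chromosome 8 averaged 18.7 ± 0.367 FPKM in C and 15.3 ± 0.397 FPKM in R and did not pass (adjusted p = 0.0990, limma). Summed under the name plin2, the level was 127 ± 7.52 FPKM in C and 80.4 ± 16.6 FPKM in R (log2 fold change 0.67, standard error 0.16, limma, adjusted p = 0.0238), with adjusted p-values of 0.0545 without C1, 0.0515 without R1 and 0.0516 without R2.

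Perilipin 1, the droplet coat of fat cells, did not pass. Its higher model (Cau.18G0005000, chromosome 18) had 19.4, 39.5 and 52.0 FPKM in C1, C2 and C3, against 49.9, 62.9 and 68.5 FPKM in R1, R2 and R3. C3 overlapped R1, and C1 was far below the others. The log2 fold change was -0.79 with a standard error of 0.33 (limma, adjusted p = 0.127), and the model passed without C3 (adjusted p = 0.0474). The second plin1 model, with the same protein match, averaged 10.7 ± 4.69 FPKM in C and 11.5 ± 1.79 FPKM in R.

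Markers of fat cells were read beside fabp4 and the perilipins. Of 8 listed, 4 were matched by name and none of these was below 1 FPKM in every library, while lep, cidea, retn and adrb3 were not matched by name. The matched markers summed to 34.97 to 65.7 FPKM in C and 32.6 to 37.3 FPKM in R, with C3 inside the range of R. Of their 8 tested models, 2 were higher and 0 lower in C, with a median log2 fold change of 0.12. Adipoq, the hormone adiponectin, had 19.3, 30.5 and 11.5 FPKM in C1, C2 and C3, against 9.72, 8.40 and 8.45 FPKM in R1, R2 and R3. It was highest in C2 and passed as a sum (limma, adjusted p = 0.0427). G0s2, an inhibitor of droplet lipase, had 9.13, 2.40 and 1.78 FPKM in C1, C2 and C3, against 0, 0 and 0.347 FPKM in R1, R2 and R3, highest in C1 (limma on sums by name, adjusted p = 0.0173). The g0s2 sum met the minimum for testing only through C, where it is high. Lipe, hormone-sensitive lipase, averaged 25.8 ± 3.96 FPKM in C and 26.3 ± 2.11 FPKM in R, and cidec, a droplet protein, was too low to test. Markers of macrophages and other leukocytes summed to 533 to 764 FPKM in C and 483 to 620 FPKM in R. Of their 22 tested models, 1 was higher and 3 lower in C. Summed by name, marco and cd68 were called higher in C (limma, adjusted p = 0.0191 and 0.0468). Mpeg1, csf1r, ptprc, spi1 and lcp1 were not called. Endothelial markers summed to 91.0 to 113 FPKM in C and 101 to 107 FPKM in R, with 1 of 14 tested models higher and 2 lower in C. The part of these cells in the results was not tested.

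**Figure D4:**
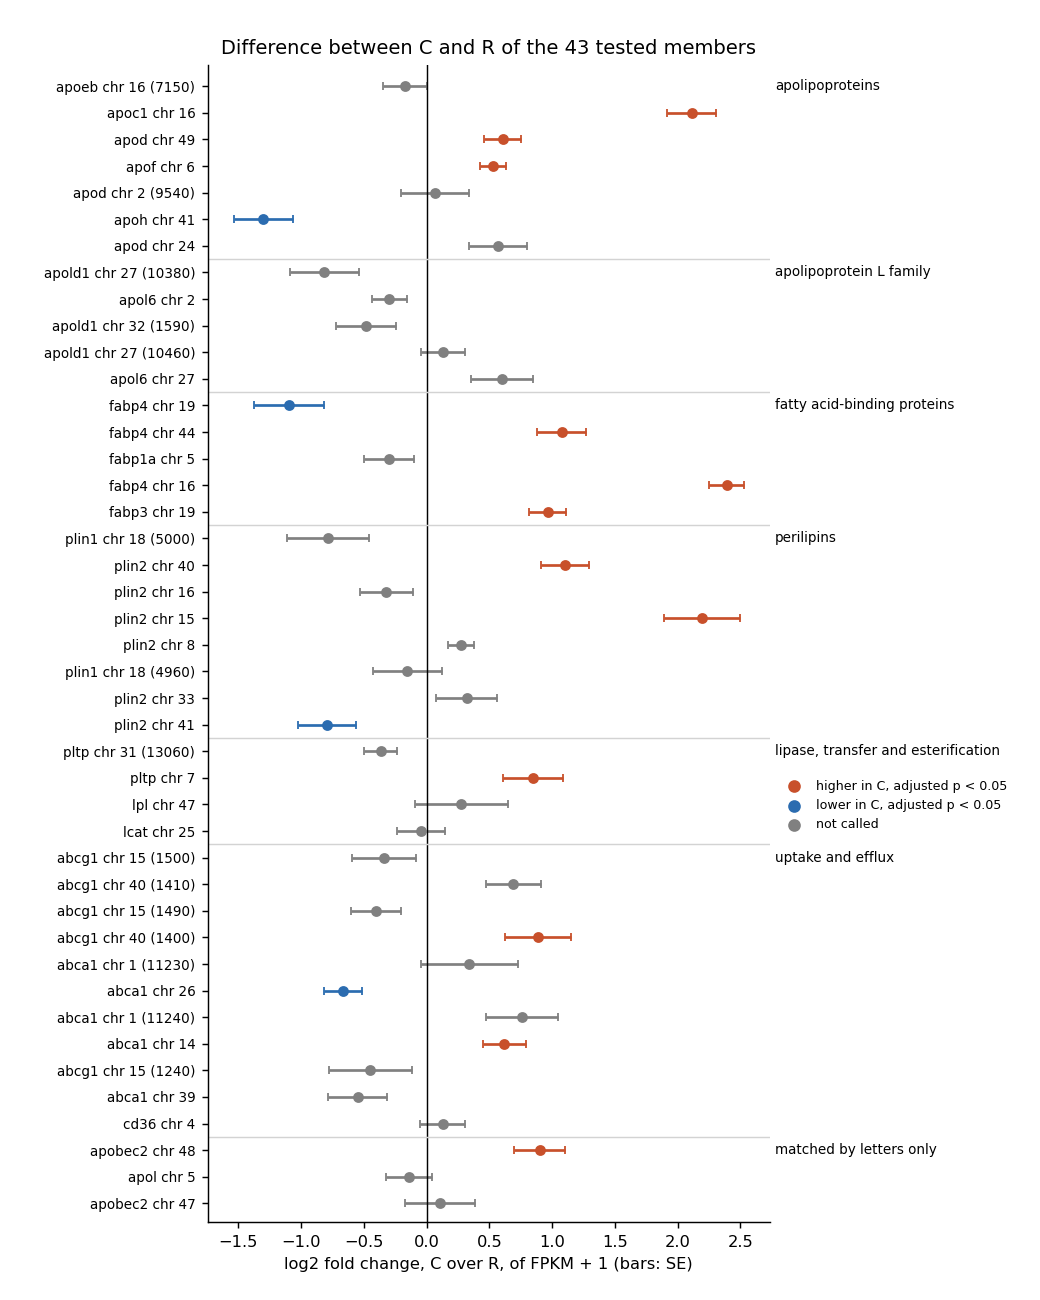
Log2 fold change, C over R, of FPKM + 1 for the 43 tested members with its standard error as a bar, grouped by role and ordered by mean level, in orange where higher in C at an adjusted p under 0.05, in blue where lower and in grey where not called. Models named fabp4, plin2, abca1, abcg1, pltp, apol6 and apold1 appear on both sides of 0, and for fabp4, plin2 and abca1 called models do. The plin2-named models below 0 are the one that RefSeq names plin6 and a perilipin-3-like model.

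Of 8 models for enzymes and transfer proteins that remodel lipoproteins, 4 were tested and 1 rose in C. Pltp, the phospholipid transfer protein, had 14.6, 21.6 and 11.8 FPKM in C1, C2 and C3, against 10.7, 7.61 and 6.75 FPKM in R1, R2 and R3, for the model on chromosome 7 (Cau.07G0009190). C lay above R, with C3 close to R1, and the log2 fold change was 0.85 with a standard error of 0.24 (limma, adjusted p = 0.0426). The call was lost in 6 of 14 alternatives, without C1 (adjusted p = 0.0931), C2 (0.0792), R2 (0.130) or R3 (0.129), with no low-value filter (0.0619) and with limma without trend and robust (0.0523). This model overlaps ctsa on the other strand, and reads of the pair may not be separated because the strand setting is unknown. Ctsa averaged 18.6 ± 1.08 FPKM in C and 17.7 ± 4.59 FPKM in R and was not called (limma, adjusted p = 0.746). The pltp model on chromosome 31 averaged 15.7 ± 2.05 FPKM in C and 20.5 ± 1.48 FPKM in R (log2 fold change -0.37, limma, adjusted p = 0.0835), and the sum by name did not pass (31.8 ± 3.64 FPKM in C and 28.9 ± 1.64 FPKM in R, adjusted p = 0.459).

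Lpl, lipoprotein lipase, which frees fatty acids from circulating particles, had 7.03, 17.2 and 5.22 FPKM in C1, C2 and C3, against 5.57, 7.61 and 8.05 FPKM in R1, R2 and R3 on chromosome 47. C2 stood apart and the groups overlapped (limma, adjusted p = 0.629). A second lpl model, on chromosome 2, was one of the 2 members just under the minimum, with 0.894, 1.41 and 0.930 FPKM in C1, C2 and C3, against 0.429, 0.519 and 0.266 FPKM in R1, R2 and R3. The other was an apod model on chromosome 27 with 1.16, 0.560 and 1.33 FPKM in C1, C2 and C3, against 0.932, 0.351 and 0.809 FPKM in R1, R2 and R3. Neither was tested. Lcat, which esterifies cholesterol on particles, averaged 3.38 ± 0.760 FPKM in C and 3.50 ± 0.628 FPKM in R (limma, adjusted p = 0.889). No model carried the name cetp.

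Among the transporters and the scavenger receptor, 11 of 15 models were tested, 2 rose and 1 fell in C. Abca1 passes cholesterol and phospholipid to lipid-poor apolipoproteins, and its 5 tested models lie on 4 chromosomes. The model on chromosome 14 (Cau.14G0005430) had 9.11, 8.07 and 5.86 FPKM in C1, C2 and C3, against 4.76, 4.43 and 4.55 FPKM in R1, R2 and R3. C lay above R and spread more widely (log2 fold change 0.62, standard error 0.17, limma, adjusted p = 0.0388). The model on chromosome 26 (Cau.26G0013040), which RefSeq names abca1a, had 4.402, 6.21 and 4.83 FPKM in C1, C2 and C3, against 7.92, 8.99 and 9.16 FPKM in R1, R2 and R3. C lay below R (log2 fold change -0.66, standard error 0.15, limma, adjusted p = 0.0210). The first call was lost in 7 of 14 alternatives, among them without C1 (0.121), C2 (0.0843), R1 (0.0933), R2 (0.119) or R3 (0.101), and the second without C1 (0.0696), R2 (0.0820) or R3 (0.0722).

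The other abca1 models did not pass. Abca1b on chromosome 39, the numbered partner of chromosome 14, averaged 1.61 ± 0.602 FPKM in C and 2.81 ± 0.728 FPKM in R. Adjacent models on chromosome 1, partner of chromosome 26, share one protein match and averaged 10.1 ± 6.18 and 9.15 ± 4.13 FPKM in C, against 6.76 ± 0.185 and 4.66 ± 0.517 FPKM in R. Over all models abca1 summed to 33.7 ± 12.7 FPKM in C and 27.6 ± 0.739 FPKM in R, with C2 highest and C3 lowest of all 6 libraries (limma, adjusted p = 0.576, and 0.0342 without C3).

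Abcg1 moves cholesterol onto particles that are already formed. The chromosome 40 model Cau.40G0001400 had 14.7, 18.3 and 7.99 FPKM in C1, C2 and C3, against 6.08, 6.62 and 6.95 FPKM in R1, R2 and R3. C lay above R, C3 only slightly so, and the call was marginal (log2 fold change 0.89, standard error 0.26, limma, adjusted p = 0.0491). It was lost in 11 of 14 alternatives, among them without C1 (0.139), C2 (0.0986), R1 (0.131), R2 (0.126) or R3 (0.107). Its neighbour with the same protein match had a log2 fold change of 0.69 (limma, adjusted p = 0.0605). The 3 tested models on chromosome 15, the numbered partner, had log2 fold changes of -0.45, -0.40 and -0.34, none of which passed. The abcg1 sum was 56.9 ± 15.7 FPKM in C and 52.7 ± 9.99 FPKM in R (limma, adjusted p = 0.805). Cd36, a scavenger receptor that takes up fatty acids and, in mammals, serves pigment epithelium in clearing shed photoreceptor membrane, was the member just above the minimum. It had 0.932, 1.28 and 1.03 FPKM in C1, C2 and C3, against 0.704, 0.903 and 1.11 FPKM in R1, R2 and R3, and the groups overlapped (limma, adjusted p = 0.644).

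Of the models matched by letters only, 3 were tested and 1 rose, apobec2 on chromosome 48. It averaged 5.35 ± 1.17 FPKM in C and 2.38 ± 0.518 FPKM in R (log2 fold change 0.90, limma, adjusted p = 0.0188), and it missed the threshold without C1 (0.0696), R1 (0.0631) or R3 (0.0642). Without these 5 models, 15 of 40 tested members passed, 11 higher and 4 lower in C.

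Summing FPKM over all models of a name takes out an exchange of reads between copies only where the copies are equally long. FPKM is divided by model length, so reads moved between copies of unlike length still change the sum. Of the 21 member names tested as sums, 6 passed, where 19.2% of all 12592 names did (7.93% higher, 11.2% lower). Higher in C were apoc1, apod, apof, fabp3 and plin2, and lower in C was apoh. The count was 3 without R2 and 4 to 9 without any other single library. Fabp4, abca1, abcg1 and pltp, each with at least 1 called model, were not among them. Partner chromosomes held both copies of a tested pair for 6 names, and 1 pair had both copies called in opposite directions, fabp4 on chromosomes 19 and 44. The plin2 pair on chromosomes 15 and 40 was the pair with both copies called in the same direction.

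Other genes of lipid handling gave the surroundings of these changes. Of 156 tested models on 4 lists, 9 were higher and 21 lower in C (19.2% called). This is near the share over all tested models, of which 20.2% were called, 8.67% higher and 11.6% lower. Taken singly, the 4 lists had 15.8% to 22% called. Sterol and fat synthesis with its regulators had 1 higher and 10 lower of 50, with a median log2 fold change of -0.29, and lipases and their helpers had 0 higher and 3 lower of 19, with a median of -0.14. Receptors and uptake had 4 higher and 5 lower of 52, with a median of -0.18. Sterol transport and efflux had 4 higher and 3 lower of 35, with a median of -0.09, the value over all tested models. In this list, abca4 on chromosome 43 and abca12 on chromosome 9, called lower, lay below 1 FPKM in every C library. Abcg4 on chromosome 15, called higher, lay below it in every R library. In the synthesis list, dgat2 on chromosome 5, called lower, lay below it in every C library. These models met the minimum only through the group where they are high, so the filter favoured their direction.

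The 2 models with the smallest p are given for each list. Among receptors, mfsd2aa, a transporter of lysophospholipids carrying docosahexaenoic acid into brain and eye, fell to 10.03 ± 0.884 FPKM in C, against 20.4 ± 1.20 FPKM in R (log2 fold change -0.96, limma, adjusted p = 0.00170). Stab2, an endothelial scavenger receptor, rose to 9.62 ± 2.32 FPKM in C, against 3.19 ± 0.318 FPKM in R on chromosome 47 (1.32, adjusted p = 0.00335, limma). Its sum rose too (limma, adjusted p = 0.0172). A stab2 model on chromosome 22, tested only through R, averaged 0.561 ± 0.495 FPKM in C and 1.54 ± 0.108 FPKM in R and was not called. Its relative stab1 on chromosome 47 fell to 2.34 ± 0.479 FPKM in C, against 5.09 ± 0.868 FPKM in R (limma, adjusted p = 0.0149). Among lipases, pnpla2, the triglyceride lipase of lipid droplets, fell to 22.4 ± 3.51 FPKM in C, against 42.7 ± 5.03 FPKM in R (-0.90, adjusted p = 0.00648, limma). Of the lipid droplet coats, plin2 on chromosomes 15 and 40 was higher in C, where this lipase was lower. The plin1 sum had a log2 fold change of -0.67 and was not called. A relation between the coats and this lipase was not tested. Lipg, endothelial lipase, fell to 4.57 ± 1.495 FPKM in C, against 9.98 ± 1.597 FPKM in R (-1.01, adjusted p = 0.0209, limma), a call lost without R1 (0.0720) or R2 (0.0829).

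For sterol transport, one abca4 copy, on chromosome 43, had 0.374, 0.270 and 0.321 FPKM in C1, C2 and C3, against 7.11, 9.73 and 10.9 FPKM in R1, R2 and R3. It lay below 1 FPKM in every C library, so it met the minimum for testing only through R, where it is high. The filter thus favoured a difference in this direction. Its log2 fold change of -2.94 was the largest in size of the tested members and list models (limma, adjusted p = 0.000110). Abca4 clears retinoid adducts from photoreceptor discs, and its sum over copies was 147 ± 16.6 FPKM in C and 187 ± 11.6 FPKM in R, which did not pass (limma, adjusted p = 0.0724). Clu, clusterin, a secreted chaperone that also travels on lipoproteins, rose to 108 ± 13.6 FPKM in C, against 45.3 ± 0.858 FPKM in R on chromosome 20 (1.23, limma, adjusted p = 0.000949), and its sum rose too (500 ± 14.3 FPKM in C and 356 ± 20.2 FPKM in R, adjusted p = 0.0133, limma). Among the regulators, srebf2, which switches on sterol synthesis, fell to 1.88 ± 0.212 FPKM in C, against 5.17 ± 0.0564 FPKM in R (-1.1001, limma, adjusted p = 0.00245). Ppara on chromosome 25, a nuclear receptor for fatty acids, fell to 1.89 ± 0.430 FPKM in C, against 5.16 ± 0.214 FPKM in R (-1.099, limma, adjusted p = 0.00403). The other ppara model there (Cau.25G0001180) averaged 4.77 ± 0.741 FPKM in C and 5.34 ± 1.32 FPKM in R (limma, adjusted p = 0.672). Summed over all its models, ppara was 24.9 ± 2.33 FPKM in C and 30.4 ± 1.84 FPKM in R and was not called (limma, adjusted p = 0.110).

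**Figure D5:**
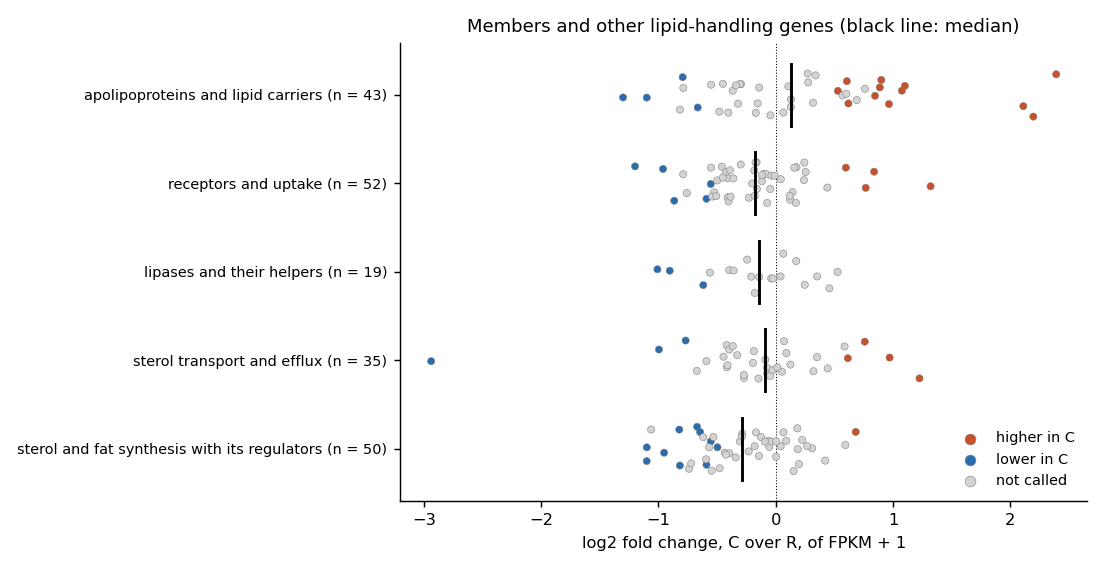
Log2 fold change, C over R, of FPKM + 1 for the 43 tested members (top row) and for the tested models of 4 lists of other lipid-handling genes, one point per model, with the median as a black line. Called models are orange (higher in C) or blue (lower in C), and the members' median of 0.13 lies to the right of the medians of the 4 lists.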

How the data were processed

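RNA sequencing of whole eyeballs was analysed in 6 libraries, 3 titled C and 3 titled R. Per the labels' protocols, eyes were frozen in liquid nitrogen, RNA was extracted with Trizol, and 3 µg of it went into each TruSeq library. Per the submitters' processing notes, Bowtie 0.12.5, TopHat2 2.0.9 and DESeq 1.10.1 were used, with a pig build, Sscrofa10.2, that does not match the goldfish identifiers. Counting tool, strand setting and goldfish assembly: not given in the sources used here. The authors deposited FPKM per gene model, and their tables of single groups repeat these FPKM values. Multiplied by model length, 99.998% to 100% of values per library were whole reads (tolerance 0.01), and 3 reads in 1 kb are 0.265 to 0.318 FPKM. Depths count reads in models and cover counting error only.

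Models reaching 1 FPKM in 3 or more of 6 libraries were tested with limma 3.58.1 (trend and robust, R 4.3.3) on log2(FPKM + 1), with a single term for group, and Benjamini-Hochberg adjustment over all 33907 models. Fold changes on this scale understate changes of low genes. The fit was repeated on FPKM summed over models with one Swiss-Prot name. A quasi-likelihood count test had been planned in case counts were deposited, and was not run because the values are FPKM. On simulated data for C against R with 33864 models, 36 of 97 planted 2-fold and 99 of 100 planted 4-fold changes were recovered, 0 with the wrong sign, and 12 unchanged models were called. The simulation gave every model the same variability beyond counting error and changed few models, so its rates may not hold for the real libraries. A total of 14 alternatives were run. One of them, limma-voom on the recovered reads, called 7349 models, against 6864 with FPKM.

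Members, gene lists and markers were chosen with earlier results of these data known. Lists were matched by Swiss-Prot name with paralog suffixes, and the suffix rule for markers was narrowed after names were seen. Named were members called with a log2 change of at least 1, the 10 highest, copies called in opposite directions, those at the edge of the minimum and the 2 smallest p-values per list. The other called members and further examples were named after their values were seen. Of the members, 63 had an accession in RefSeq's gene table (ASM336829v1, which gave names and nothing else), and 19 had a goldfish symbol. Of the tested members, 8 overlap a model on the other strand. Same-numbered libraries did not deviate together, so they were not treated as pairs.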

Additional observations from a re-analysis of the deposited data

How the results depend on the processing

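Across 14 alternatives, 609 values of 44 single models and sums kept their direction and side of the threshold in 539 cases, lost a call in 58, gained one in 8 and turned direction in 4, and 7 of the 16 called members kept their call throughout. The reversals were in sums that were not called, abca1 (-0.0412 with limma-voom on recovered reads and -0.0483 without C2, in a leave-one-out range up to 0.506), abcg1 (-0.103 without C2, range up to 0.300) and cd36 (-0.000949 without R1, range up to 0.205). Leaving out 1 library gave 8 to 21 called members, 7 to 15 of them higher and 1 to 6 lower, 3 to 9 called names, 6 to 12 called among the named members (11 with all libraries) and 13 to 24 called pathway models (30 with all libraries). Fewer samples enter those fits. Quantile normalization called 2 members lower instead of 4, and the cause was not tested. A mean of at least 5 FPKM called 16 pathway models, fewer models being tested, and gave no value for cd36, for plin2 on chromosome 41, for abca4 on chromosome 43, for srebf2, for ppara or for apobec2 on chromosome 48. With the median ratio set to 0, the share of called models that were higher was 52.4%, against 42.8% as deposited, and members split 14 higher and 3 lower. The replicate numbers did not pair the libraries (correlations of deviations -0.01, 0.10 and 0.04). With a replicate block, 16 members were called, 10 higher and 6 lower, 8 names and 25 pathway models, plin1 Cau.18G0005000 was called (adjusted p = 0.0427, limma) and abca1 Cau.14G0005430 was not (0.0539). C2, R2 and R3 correlated best with their own number, and C1, C3 and R1 did not. None of the 39 untested members reached 1 FPKM in 3 libraries, a minimum that is already scaled to library size.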
